A study of Mus musculus with 6 samples.

Results

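Nfe2l2 and 5 genes that lie near it on mouse chromosome 2, Cyct, Rbm45, Dcaf17, Itga6 and Itgav, were examined in the hippocampus of Nrf2 (+/+) and Nrf2 (−/−) mice. The 6 genes were chosen by their probes, 1 for each gene, out of 60915 probes on the arrays, of which 43528 were bright enough to be tested. Other probes get a gene name only from the study's lists of changed genes. Any further probe of these 6 genes that did not differ would therefore stay unnamed and is not seen here. The probes were picked with the difference between the genotypes on these same arrays in view, so their levels and differences are given as a description, with no test. All 6 passed the filter on dim probes, which asked for a spot well above background on 3 or more of the 6 arrays. Cyct passed it through the Nrf2 (+/+) arrays alone.

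Hippocampal RNA came from 3 male Nrf2 (+/+) mice and 3 Nrf2 (−/−) mice of the ICR strain, aged 3 to 4 months, with no treatment. The paper words the sex as male beside the Nrf2 (+/+) mice only. Each mouse was hybridized with a single dye (Cy3) to 1 array that reads mRNAs and long non-coding RNAs (lncRNAs), so a replicate is a mouse, and with so few arrays each value is imprecise. The Nrf2 (−/−) mice carried the knockout allele throughout the body, and whether the genotypes were littermates is not given in the sources used here. Tail DNA was genotyped by PCR with a shared sense primer and an antisense primer for each allele. The pair for the intact allele is shown because the genotypes differ in that allele.
Sense primer for both genotypes: tggacgggactattgaaggctg
Antisense primer for Nrf2: gccgccttttcagtagatggagg

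Nfe2l2 encodes Nrf2, a basic leucine zipper transcription factor. Under resting conditions Keap1 holds Nrf2 in the cytoplasm and marks it for degradation. Under oxidative stress Nrf2 enters the nucleus, pairs with small Maf proteins and binds antioxidant response elements in front of detoxification and antioxidant genes. In the brain this pathway is known mainly from astrocytes, where it raises glutathione synthesis. The other genes have no shared function. Cyct encodes the testis form of cytochrome c, Rbm45 an RNA-binding protein of the developing nervous system, and Dcaf17 a substrate receptor of DDB1-CUL4 ubiquitin ligases. Itga6 and Itgav encode integrin alpha subunits, of laminin receptors and of receptors for vitronectin and latent TGF-beta, respectively.

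By the order of protein-coding genes in the RefSeq annotation of GRCm38.p6, Cyct was the 6th gene and Rbm45 the 7th on one side of Nfe2l2, with Itgav 35 genes away on that side. Itga6 lay 30 genes and Dcaf17 38 genes away on the other side. Start sites could be compared for 5 of the 6 genes, since no promoter sequence was at hand for Itga6. The start of Nfe2l2 was 656 kb from that of Cyct, 665 kb from that of Rbm45, 4.65 Mb from that of Dcaf17 and 8.02 Mb from that of Itgav. Cyct and Rbm45 are neighbours on opposite strands that point away from each other, with 9.53 kb between their starts.

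The 250 bases before the start of Nfe2l2, Cyct and Rbm45 are shown because Nfe2l2 was targeted and the other two are the nearest to it of the genes described. Sequences are from RefSeq (GRCm38.p6) and read 5′ to 3′ on the strand of the gene, the last base lying next to the start. Capitals mark the antioxidant response element core in the Nfe2l2 window and the CCAAT box in the Cyct window. The windows are chr2:75704664-75704913 on the minus strand for Nfe2l2, chr2:76360454-76360703 on the minus strand for Cyct and chr2:76369734-76369983 on the plus strand for Rbm45.
Nfe2l2 promoter: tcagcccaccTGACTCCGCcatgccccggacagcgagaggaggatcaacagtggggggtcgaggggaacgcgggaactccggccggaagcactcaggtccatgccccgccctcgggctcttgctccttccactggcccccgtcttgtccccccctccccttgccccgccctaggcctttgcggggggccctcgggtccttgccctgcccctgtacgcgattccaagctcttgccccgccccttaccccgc
Cyct promoter: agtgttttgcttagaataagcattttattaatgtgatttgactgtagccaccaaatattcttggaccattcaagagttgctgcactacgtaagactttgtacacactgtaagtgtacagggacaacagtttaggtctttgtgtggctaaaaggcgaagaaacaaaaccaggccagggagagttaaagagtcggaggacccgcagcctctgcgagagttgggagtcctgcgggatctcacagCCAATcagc
Rbm45 promoter: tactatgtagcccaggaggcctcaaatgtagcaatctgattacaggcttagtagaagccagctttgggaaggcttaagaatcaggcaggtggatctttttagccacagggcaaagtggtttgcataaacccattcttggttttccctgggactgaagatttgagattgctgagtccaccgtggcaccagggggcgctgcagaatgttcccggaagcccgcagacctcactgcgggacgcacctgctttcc

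Several motifs were searched for on both strands: the antioxidant response element core TGACNNNGC, the AP-1 site TGANTCA, the CCAAT box CCAAT, the GC box GGGCGG and the cAMP response element TGACGTCA. The first, second and last of these could overlap, but no overlapping matches occurred in the 5 windows searched. The Nfe2l2 window held 1 antioxidant response element core, TGACTCCGC, which begins 240 bases before the start, and 3 GC boxes on the opposite strand. Its GC content was 70.4% with 18 CpG dinucleotides, against medians of 52.4% and 6 over 32851 RefSeq windows of the same length. The Cyct window held 1 CCAAT box that begins 9 bases before the start, at a GC content of 45.6% with 6 CpG. None of the motifs had a match in the Rbm45 window, whose GC content was 52.4% with 6 CpG. The Dcaf17 window held 2 GC boxes (GC content 64%, 14 CpG), and the Itgav window none of the motifs (GC content 64.4%, 18 CpG). Over all windows, the antioxidant response element core was found in 10.2%, the AP-1 site in 6.75%, the CCAAT box in 33.9%, the GC box in 32.7% and the cAMP response element in 1.55%. These matches describe letters in a window, not binding, and none was measured here.

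The arrays and the labels were checked first. The median spot signal of all probes was 87.7 to 109 on the Nrf2 (+/+) arrays and 138 to 184 on the Nrf2 (−/−) arrays. Before normalization the knockout arrays were thus brighter by their medians, though not for every probe. No spot was saturated, and 65.5% to 75.7% of probes were well above background on each array. Scan times in the file headers showed that both replicates 1 had been scanned together, as had both replicates 3, and arrays scanned together are taken here to share a slide. Levels below are quantile-normalized log2 signals, in which 1 unit is a doubling, and differences are the mean of Nrf2 (−/−) minus the mean of Nrf2 (+/+) mice, with a standard error (SE) from limma fitted on all tested probes. Markers of hippocampal cell types could not be set against the labelled tissue, because 0 of the 27 listed marker genes had a named probe. In bulk tissue, fewer cells of a type and less RNA per cell cannot be told apart.

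Nfe2l2 (probe ASMM10P020792), the targeted gene, had log2 signals of 12.40, 11.93 and 12.28 in the 3 Nrf2 (+/+) mice and of 7.95, 7.82 and 8.02 in the 3 Nrf2 (−/−) mice. The genotypes were far apart, with a gap of 3.91 between the lowest Nrf2 (+/+) and the highest Nrf2 (−/−) mouse. The means were 12.20 ± 0.24 and 7.93 ± 0.10 (SD, n = 3), and the difference of −4.27 (SE 0.20) left the knockout at 5.17% of the Nrf2 (+/+) signal, or 19.3-fold lower. The knockout signal was not at background. The Nfe2l2 spot was 11.7 to 16.5 times its local background on the Nrf2 (−/−) arrays and 109 to 229 times on the Nrf2 (+/+) arrays. The position of the probe within the gene is not given in the sources used here, so the remaining signal cannot be assigned to a part of the transcript, and whether the probe lies inside the deleted part is not known.

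**Figure D1:**
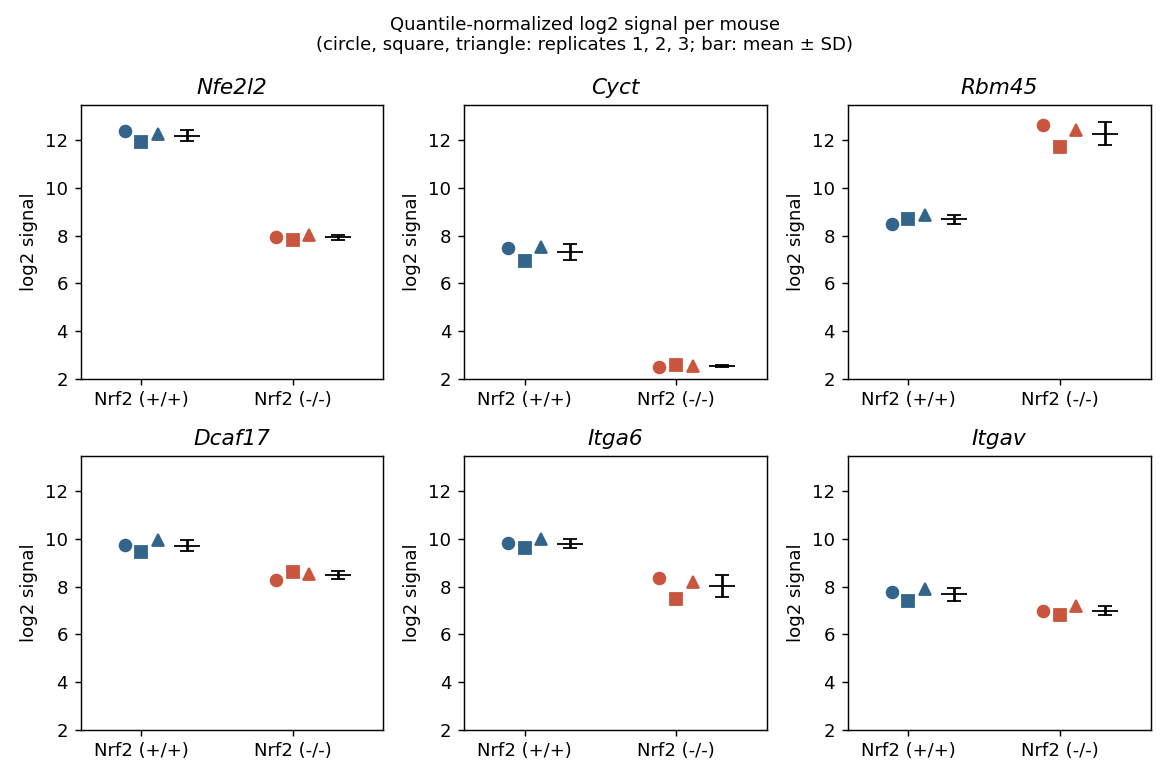
Quantile-normalized log2 signal (vertical axis) of the 6 genes in each mouse, with circles, squares and triangles for replicates 1, 2 and 3 of Nrf2 (+/+) and Nrf2 (−/−) mice and bars for the mean ± SD (n = 3). Rbm45 was higher in every Nrf2 (−/−) mouse and the other 5 genes were lower, with a gap between the nearest mice of 0.19 for Itgav and 3.91 for Nfe2l2. The knockout values of Cyct were not well above background.

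Cyct (ASMM10P020801), the testis cytochrome c gene, gave 7.49, 6.94 and 7.54 in Nrf2 (+/+) mice and 2.51, 2.57 and 2.53 in Nrf2 (−/−) mice. Every knockout array was not well above background, whereas every Nrf2 (+/+) array was. The measured means were 7.32 ± 0.34 and 2.54 ± 0.03 (SD, n = 3), and their difference was −4.78 (SE 0.22), a value set by signals near background. The knockout level is therefore not resolved, and a floor was used in its place. Set against that floor, the signal of Cyct was 6.99-fold lower in Nrf2 (−/−) mice than in Nrf2 (+/+) mice. The floor is 4.52, the mean over the knockout arrays of the lowest log2 signal that counted as well above background. A higher floor would give a smaller fold, so 6.99-fold is not a strict minimum. It holds only for the background subtraction used here. With normexp correction and its offset of 50, the difference was −1.88, smaller in size than 2.81, the log2 value of that fold. On the unprocessed arrays the spot read 198, 141 and 166 in Nrf2 (+/+) mice and 41, 34 and 37 in Nrf2 (−/−) mice, with a local background of 20 to 23 around the latter. The spot was 5.64 to 9.43 times its local background in Nrf2 (+/+) mice and 1.48 to 1.85 times in Nrf2 (−/−) mice. The small SD of the knockout is that of values near background.

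Rbm45 (ASMM10P023053), the RNA-binding protein gene next to Cyct, went the other way. Its log2 signals were 8.51, 8.70 and 8.88 in Nrf2 (+/+) mice and 12.66, 11.73 and 12.44 in Nrf2 (−/−) mice. The means of 8.69 ± 0.19 and 12.27 ± 0.48 (SD, n = 3) differed by 3.58 (SE 0.28), a knockout signal of 1195% of that in Nrf2 (+/+) mice, and the nearest mice of the genotypes were 2.85 apart. Only 1 of the 21312 tested probes with a higher mean in Nrf2 (−/−) mice had a larger difference. Both genotypes were well above background, with a spot at 14.3 to 22.4 times its local background in Nrf2 (+/+) mice and 161 to 351 times in Nrf2 (−/−) mice. Cyct and Rbm45 therefore differed in opposite directions between the genotypes although their starts are neighbours. Nrf2 (−/−) replicate 2 held the lowest of the knockout values of Rbm45.

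Dcaf17, Itga6 and Itgav had smaller differences than Nfe2l2, Cyct and Rbm45. No trend with distance from Nfe2l2 is read from this, because the same arrays chose these genes. Dcaf17 (ASMM10P022961), the ubiquitin ligase receptor gene, had 9.76, 9.47 and 9.95 in Nrf2 (+/+) mice and 8.28, 8.61 and 8.54 in Nrf2 (−/−) mice, without overlap. Its means were 9.73 ± 0.25 and 8.48 ± 0.18 (SD, n = 3), a difference of −1.25 (SE 0.21) that left 42.1% of the Nrf2 (+/+) signal. It ranked 353rd by measured size among the 22216 tested probes with a lower mean in Nrf2 (−/−) mice.

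Itga6 (ASMM10P006713), the laminin receptor subunit gene, had 9.82, 9.61 and 9.98 in Nrf2 (+/+) mice and 8.36, 7.48 and 8.21 in Nrf2 (−/−) mice. The genotypes did not overlap, and the spread in the knockout came mostly from replicate 2. With means of 9.80 ± 0.18 and 8.02 ± 0.47 (SD, n = 3), the difference was −1.78 (SE 0.27), a knockout signal of 29.0% of that in Nrf2 (+/+) mice and a rank of 148.

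Itgav (ASMM10P023110), the other integrin gene, had 7.76, 7.39 and 7.92 in Nrf2 (+/+) mice and 6.98, 6.81 and 7.20 in Nrf2 (−/−) mice. Here the lowest Nrf2 (+/+) mouse, replicate 2, was 0.19 above the highest Nrf2 (−/−) mouse, replicate 3, a gap smaller than the SD within either genotype. The means of 7.69 ± 0.27 and 7.00 ± 0.20 (SD, n = 3) differed by −0.69 (SE 0.22), leaving 61.9% of the Nrf2 (+/+) signal. Itgav ranked 1234th among the lower probes.

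The genotypes did not overlap for any of the 6 genes, 5 of them lower and 1 higher in Nrf2 (−/−) mice. Over all tested probes, 6.19% were lower and 4.23% higher without overlap. An adjusted p under 0.05 from limma was reached by 0.0345% of tested probes in the lower direction (15 probes) and 0.0138% in the higher one (6 probes). It was reached by none in either direction with the methods' t-test (2535 probes at an unadjusted p under 0.05) or with the replicate number as a block in limma (7090 probes). Other fits called more, with 464 lower and 102 higher probes with the slide as a block, and 167 and 26 without Nrf2 (−/−) replicate 2. No call is given for the 6 genes, and nothing can be read from these shares about them, because the same arrays chose them.

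Before normalization between the arrays, 5 genes kept their direction and their separation, with other sizes, and Itgav did not. Without it, the log2 differences were −3.67 for Nfe2l2, −4.33 for Cyct, 4.16 for Rbm45, −0.62 for Dcaf17 and −1.14 for Itga6, each still without overlap. On this scale 19766 of the 43528 tested probes were higher and 177 lower in Nrf2 (−/−) mice without overlap. The background-subtracted signal of Itgav was 187, 136 and 170 in Nrf2 (+/+) mice and 181, 152 and 158 in Nrf2 (−/−) mice, so the genotypes overlapped, and the log2 difference was 0.0027. The median of all tested probes was higher by 0.62 in Nrf2 (−/−) mice on this scale. Relative to that median, the differences were −4.30 for Nfe2l2, −4.95 for Cyct, 3.53 for Rbm45, −1.25 for Dcaf17, −1.77 for Itga6 and −0.62 for Itgav. The lower Itgav value in the knockout is thus a value relative to the other probes of the arrays. A shift of each array to the mean of 15 reference probes, spotted 20 times each, left the median of all tested probes higher by 0.12 in Nrf2 (−/−) mice. On that scale the values were −4.18 for Nfe2l2, −4.84 for Cyct, 3.65 for Rbm45, −1.13 for Dcaf17, −1.65 for Itga6 and −0.51 for Itgav, the last again without overlap. The reference probes did not all shift alike between the genotypes before normalization. Median signals of CUST_9_PI419532418 were 10572 to 12544 in Nrf2 (+/+) and 22171 to 35055 in Nrf2 (−/−) mice. Those of CUST_14_PI419532418 were 166798 to 203810 and 203078 to 226892.

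**Figure D2:**
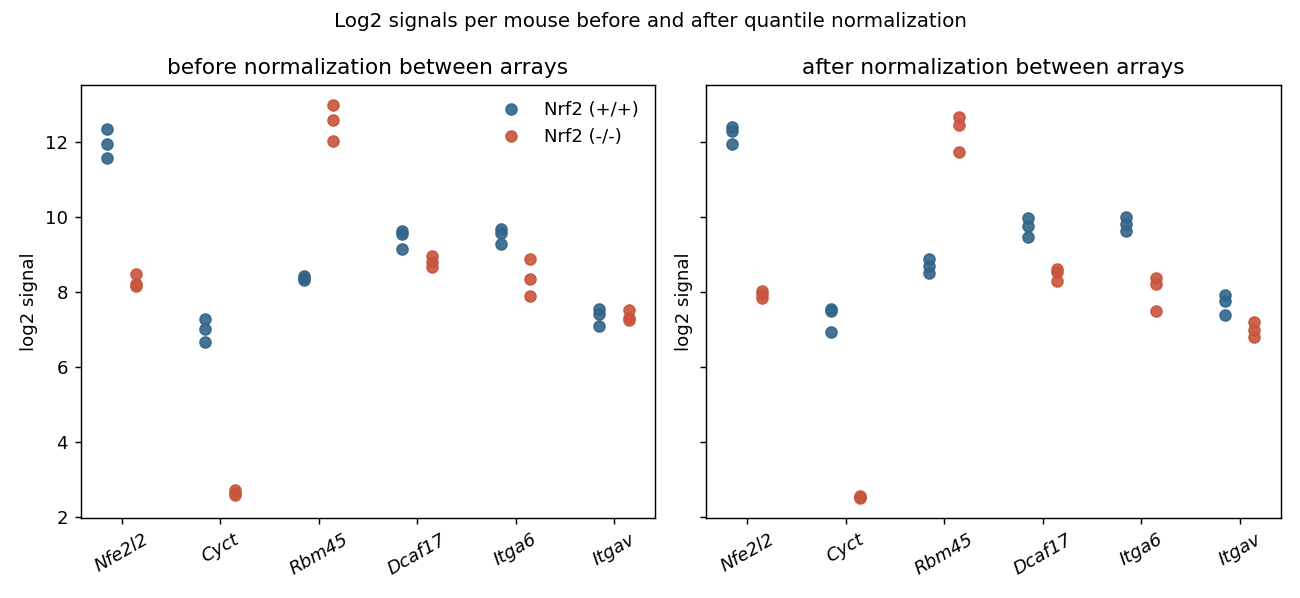
Log2 signal (vertical axis) of the 6 genes in each of 3 Nrf2 (+/+) and 3 Nrf2 (−/−) mice, before (left) and after (right) quantile normalization between arrays, each point being 1 mouse. Itgav overlaps between the genotypes on the left only, where its means are 7.35 in both.

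Pooled over the genotypes, the spread between mice was wider for Rbm45 and Itga6 than for the other 4 genes. In Nrf2 (−/−) mice their SDs of 0.48 and 0.47 were the widest of the 6. Among Nrf2 (+/+) mice the order was the reverse, with the SDs of 0.19 for Rbm45 and 0.18 for Itga6 the smallest. There the other genes were at 0.24 (Nfe2l2), 0.34 (Cyct), 0.25 (Dcaf17) and 0.27 (Itgav). The pooled SD within genotypes was 0.19 for Nfe2l2, 0.24 for Cyct, 0.21 for Dcaf17 and 0.24 for Itgav, all below the median of 0.32 over all tested probes. It was 0.37 for Rbm45 and 0.36 for Itga6, above that median. For Cyct the pooled value takes in knockout signals near background (SD 0.03), so its place below the median is not read as a narrow spread. For comparison, the spots of a reference probe on 1 array (14 to 20 after outliers were left out) had an SD of 0.015 to 0.21 in log2 signal, with a median of 0.036 over 90 pairs of probe and array.

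Replicate 2 of each genotype stood out in this spread. Each was scanned without another of the 6 arrays, so for these replicates the mouse and the slide cannot be told apart. Nrf2 (+/+) replicate 2 was the lowest Nrf2 (+/+) mouse for 5 of the 6 genes, by −0.19 to −0.39 from the genotype mean, and lay at the mean for Rbm45. Nrf2 (−/−) replicate 2 was the lowest knockout mouse for Nfe2l2, Rbm45, Itga6 and Itgav, by −0.54 for both Rbm45 and Itga6, and the highest for Dcaf17. The order of the knockout mice for Cyct is not read, because none of their values was well above background. No deviation was as large as the difference between genotypes in the same gene. For Itgav the largest deviation, −0.30 in Nrf2 (+/+) replicate 2, came nearest to it.

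**Figure D3:**
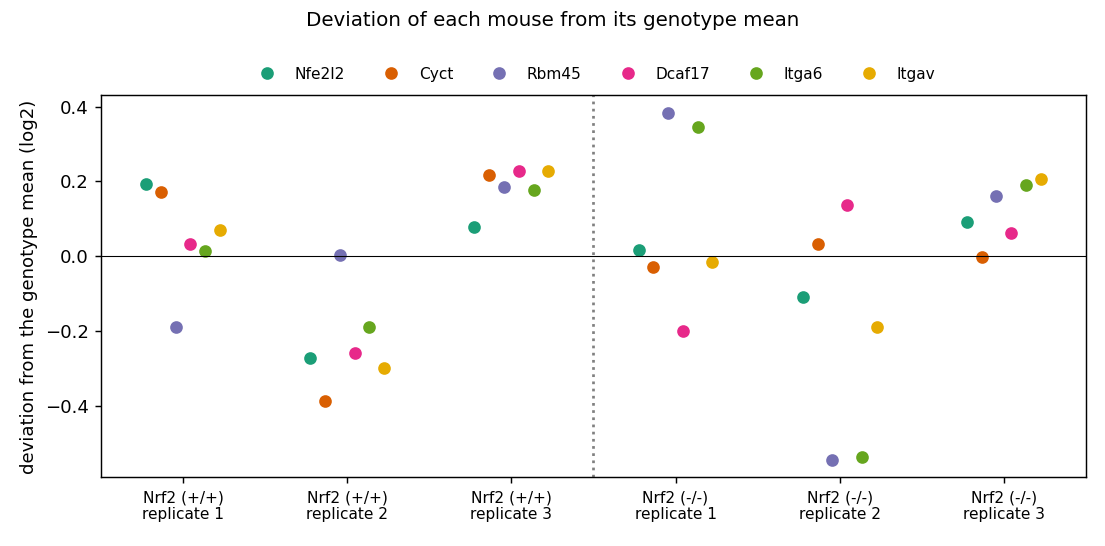
Deviation of each mouse from the mean of its genotype (log2, vertical axis) for the 6 genes, 1 colour per gene, over the 3 Nrf2 (+/+) and 3 Nrf2 (−/−) mice. The widest deviations are −0.54 for Rbm45 and for Itga6 in Nrf2 (−/−) replicate 2.

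The differences were also read within the slides and scan sessions that held both genotypes. On the slide of replicates 1, Nrf2 (−/−) minus Nrf2 (+/+) was −4.45 for Nfe2l2, −4.99 for Cyct, 4.15 for Rbm45, −1.48 for Dcaf17, −1.45 for Itga6 and −0.78 for Itgav. On the slide of replicates 3, the same differences were −4.26, −5.00, 3.56, −1.42, −1.77 and −0.71 in that order of genes. Each of these slides held 1 mouse per genotype. The direction of every gene on either slide was fixed in advance, because the genotypes did not overlap for any of these genes. Only the sizes could differ between the slides, so nothing is read from the directions. The earlier scan session held Nrf2 (+/+) replicate 1 with Nrf2 (−/−) replicates 1 and 2. The later one held Nrf2 (+/+) replicates 2 and 3 with Nrf2 (−/−) replicate 3. Each session includes 1 of these slides, so the readings share arrays. In the earlier and the later session, the difference of Itgav was −0.86 and −0.45, and that of Itga6 was −1.89 and −1.59. The sessions gave −4.51 and −4.09 for Nfe2l2, −4.95 and −4.70 for Cyct (knockout values near background), 3.69 and 3.65 for Rbm45, and −1.31 and −1.17 for Dcaf17. The directions in the sessions were fixed in the same way as those on the slides.

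**Figure D4:**
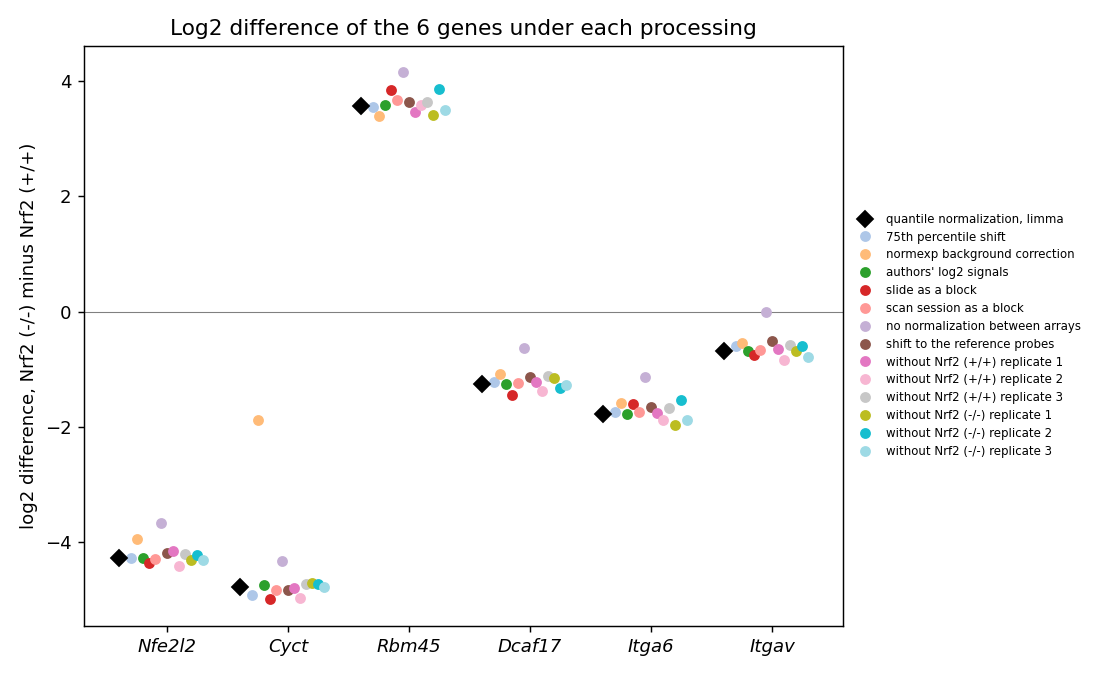
Log2 difference, Nrf2 (−/−) minus Nrf2 (+/+) (vertical axis), of each of the 6 genes under the main processing (black diamond) and under each alternative (coloured points, with arrays left out in turn). The Cyct point at −1.88 is the background correction with an offset, and the Itgav point at 0.0027 is the value without normalization between arrays.

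Within the stretch of chromosome 2 from Dcaf17 to Itgav, RefSeq lists 74 protein-coding genes, or 0.338% of all 21900. Of the 372 genes called DEmRNAs in the study that were found in RefSeq, 6 lay in this stretch (1.61%), and these are the 6 genes described here. No probe could be named for the other 68 genes of the stretch, because only probes listed for their difference carry a gene name, so how many of the 68 were level between the genotypes is not known from these data. The list was itself drawn from these 6 arrays, and Dcaf17 and Itgav set the ends of the stretch, so nothing can be read from the shares.

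Farther out, chromosome 2 held 26 other DEmRNA genes, with differences from −2.81 to 1.21. Of these, 21 were lower and 5 higher in Nrf2 (−/−) mice. Most genes of the study's whole DEmRNA list were lower as well, so nothing can be read from this count about chromosome 2. Of the 26, 0 had an adjusted p under 0.05 from limma over all tested probes (2196 of which had an unadjusted p under 0.05). Over all tested probes, the shares with such an adjusted p were 0.0345% lower and 0.0138% higher. With shares this small, nothing is read from the 0 of 26. All 32 DEmRNA genes of the chromosome make up 8.60% of the 372, and chromosome 2 holds 8.14% of all RefSeq protein-coding genes. Within 100 genes on either side of Nfe2l2, a window set after the values were seen, there were 5 DEmRNA genes besides the 6. Scn3a, a neuronal sodium channel gene 76 genes from Nfe2l2 on the side of Dcaf17, was at 9.56 ± 0.16 and 8.00 ± 0.02 (SD, n = 3), a difference of −1.56 (limma adjusted p = 0.0734). Its neighbour Slc38a11, a putative amino acid transporter gene, differed by −1.48 (limma adjusted p = 0.142), and Spc25, which encodes a kinetochore protein, by −1.68 (limma adjusted p = 0.187). On the higher side, Wdsub1 differed by 0.69 (limma adjusted p = 0.780) and Slc43a1, an amino acid transporter gene, by 0.63 (limma adjusted p = 0.829). None of these 5 passed the threshold.

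**Figure D5:**
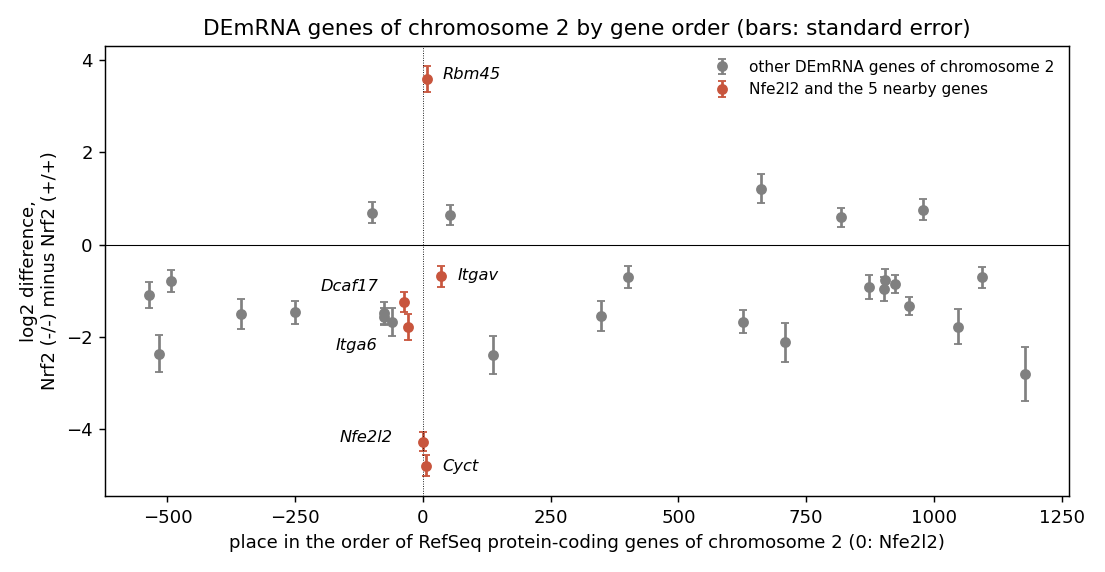
Log2 difference, Nrf2 (−/−) minus Nrf2 (+/+) (vertical axis, bars for the SE), of the 32 DEmRNA genes of chromosome 2 by their place in the order of RefSeq protein-coding genes, counted from Nfe2l2 (horizontal axis). Nfe2l2 at −4.27 and Rbm45 at 3.58 lie 7 genes apart, with Cyct between them at a measured −4.78 that rests on knockout signals not well above background.

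The mice of a genotype share their Nfe2l2 allele and may share the chromosome segment around it, which was not measured. In this design the absence of Nrf2 and any difference in the segment around the gene cannot be told apart for Cyct, Rbm45, Dcaf17, Itga6 and Itgav. That the genes are linked rests on their place in RefSeq alone.

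The rest of the Nrf2 pathway could be followed only in part. Of 30 listed genes, among them Keap1, the small Maf genes and antioxidant and detoxification genes, 3 had a named probe, all of them from the DEmRNA list that was drawn on these mice. Gstm1, a glutathione transferase gene, differed by −1.23 (SE 0.20, limma adjusted p = 0.150), Aox1, an aldehyde oxidase gene, by −1.27 (SE 0.22, limma adjusted p = 0.180), and Abcc4, an efflux transporter gene, by −0.60 (SE 0.23, limma adjusted p = 0.908). Of these 3, 0 passed the test in either direction, where 0.0345% of all tested probes were called lower and 0.0138% higher. With the slide as a block 2 of the 3 passed it, in a fit that called 102 probes higher and 464 lower of 43513. The median of the 3 was −1.23 against −0.01 for all tested probes, a gap that their choice from the DEmRNA list fixes. Of 19 relatives of the 6 genes, namely the somatic cytochrome c gene Cycs, the beta partners and other alpha subunits of the integrins and the DDB1-CUL4 partners, 0 had a named probe.

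The probes most like each gene were taken by the root mean square (RMS) distance between log2 profiles centred on their mean over the 6 arrays. This centring keeps the difference between genotypes. The nearest probes therefore share the direction and much of the size of that difference by the way they were chosen. Nearest to Nfe2l2 were Gm5136 (RMS 0.27) and the lncRNAs A330049N07Rik (0.30) and Gm15397 (0.31), which differed between genotypes by −4.14, −4.21 and −3.95. The same 3 probes were nearest to Cyct, whose measured background-level values in the knockout were used, at RMS 0.40 for A330049N07Rik and 0.46 for both others. Rbm45 was nearest to a lncRNA listed with Setd7 (RMS 0.44), to 5031434O11Rik (0.45) and to Kif14, a mitotic kinesin gene (0.54). These distances are wider than those of the genes with small differences.
Dcaf17 was closest to Aox1, the aldehyde oxidase gene given above, at RMS 0.085, followed by the lncRNA AK086245 (0.11) and Bcl2a1d, a gene of the Bcl2 family (0.12). Itga6 was closest to Gm26793 (0.15), AK047150 (0.17) and Cd163, a macrophage scavenger receptor gene (0.21). Cd163 differed between genotypes by −1.47, and Mrc1, a macrophage mannose receptor gene of chromosome 2, by −0.79 (limma adjusted p = 0.664). Both carry a name because they are on the DEmRNA list, neither is on the marker list, and their part in the values of Itga6 and Itgav was not tested. Itgav had 2 probes without a name among its nearest 3, ASMM10P015077 (0.033) and ASMM10P027060 (0.042), and AI317395 (0.040) between them. None of the nearest probes with a name was another of the 6 genes, since members were left out of this search.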

How the data were processed

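RNA from the hippocampus of 6 mice, 3 of each genotype, was hybridized to Arraystar lncRNA arrays (1 dye, 1 array per mouse). The authors extracted spot intensities with Agilent Feature Extraction 11.0.1.1, which subtracts background and replaces low values by surrogates, and nothing in these deposited intensities is normalized between arrays. A deposited table of log2 signals per probe, which the authors had normalized by quantiles in GeneSpring GX, served as an alternative. For the 6 genes it differed from the values computed here by at most 0.043.

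Here, outlier spots (16 to 91 per array) were left out, log2 signals were averaged per probe and quantile-normalized, and 43528 of 60915 probes well above background on 3 or more arrays were kept. Differences come from limma 3.58.1 in R 4.3.3 (lmFit, eBayes, two-sided, Benjamini-Hochberg adjustment over all tested probes). Python 3.11.15, with pandas 2.3.3, scipy 1.17.1 and matplotlib 3.10.9, did the rest.

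Most probes carry an identifier without a gene. Names were given by matching fold changes and p-values recomputed from the deposited log2 signals with those in the study's lists of changed mRNAs and lncRNAs (relative tolerance 0.0001), which found 1 probe for each of 412 mRNA and 303 lncRNA entries. Those listed values were used for nothing else. The genes and lists were chosen with earlier results of these data known. Named are the 6 genes, the 3 tested probes most like each, and any listed pathway gene, relative or cell type marker with a named probe. The other chromosome 2 genes that are named were chosen after their values were seen. Same-numbered mice were not treated as pairs. Over all tested probes, their deviations from the genotype means correlated at −0.15, 0.43 and 0.81, and replicates 1 and replicates 3, but not replicates 2, shared a scan. Alternatives changed the background correction, the normalization, the filter, the blocks or the mice included. A shift to the reference probes and the omission of normalization were added after the data were seen.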

Additional observations from a re-analysis of the deposited data

How the results depend on the processing

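Of 84 alternative values of the log2 differences of the 6 genes, 76 moved by less than 1 SD between replicates, 7 moved by more and 1 changed sign. The 76 include the replicate block, which could not change the differences in this balanced design. They also include the authors' quantile normalization of the same intensities, so the count is not read as a measure of robustness. With normexp background correction (offset 50), Nfe2l2 was at −3.95 and Cyct at −1.88; the offset lifts dim spots, as those of Cyct in the knockout. Without normalization between arrays, Nfe2l2 was at −3.67, Cyct at −4.33, Rbm45 at 4.16, Dcaf17 at −0.62, Itga6 at −1.14 and Itgav at 0.0027, a scale on which the median of all tested probes was 0.62. With each mouse left out in turn, the differences ran from −4.42 to −4.15 for Nfe2l2, −4.97 to −4.72 for Cyct, 3.42 to 3.86 for Rbm45, −1.38 to −1.12 for Dcaf17, −1.97 to −1.53 for Itga6 and −0.84 to −0.57 for Itgav.

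The number of probes with an adjusted p under 0.05 (6 higher, 15 lower) moved far more. Higher and lower probes numbered 102 and 464 with the slide as a block, a fit that rests on the 2 slides with both genotypes, 2 and 7 with no filter on dim probes, 3 and 6 with probes well above background on all 6 arrays (Cyct is then not tested), and 0 and 0 with the methods' t-test (2535 probes at an unadjusted p under 0.05). The higher ones numbered 10 with a shift to the 75th percentile, 10 with a shift to the reference probes and 38 without normalization, and the lower ones numbered 8 with normexp. With a replicate block there were 0 and 0 (7090 at an unadjusted p under 0.05 from limma), and the differences of the 6 genes were as in the fit without it. With mice left out, the counts ran from 2 to 26 higher and from 4 to 167 lower. The extremes of 26 and 167 were both without Nrf2 (−/−) replicate 2, while 2 and 4 came without Nrf2 (+/+) replicate 1. Leaving out Nrf2 (+/+) replicate 2 gave 2 and 12. For the remaining mice they were 3 and 10 (Nrf2 (+/+) replicate 3 left out), 6 and 8 (Nrf2 (−/−) replicate 1) and 3 and 9 (Nrf2 (−/−) replicate 3). The cause was not tested. Of the 3 named genes of the Nrf2 pathway, 2 had an adjusted p under 0.05 with the slide as a block and 0 in the other fits run for them. Dim signal leaves the level of Cyct in the knockout unresolved, and 1 named probe per gene leaves differences between transcripts unseen. Other probes of the same genes that did not differ would carry no name here, so they may be on the arrays unseen.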
